A study of Homo sapiens with 6 samples.

Results

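Cytosolic HSP90 and its co-chaperones were followed as 10 genes taken by name. HSP90AA1 and HSP90AB1 encode the cytosolic HSP90 proteins, and STIP1, CDC37, AHSA1, PTGES3, FKBP4, PPID, CHORDC1 and CACYBP encode proteins that work with them. All 10 were among the 19945 genes listed in both cell lines and among the 13265 genes tested, which had a mean of at least 1 CPM (reads scaled to the gene-assigned total of the library). RNA was sequenced from T24 and UM-UC-3, established human bladder carcinoma lines kept in different media with serum. Treatment lasted 48 h in each line and was either 0.04 OD of an siRNA, siRNA-1 or siRNA-2, or a negative control. Every combination gave 1 library, which made 4 groups: T24 control (n = 1), T24 siRNA (n = 2), UM-UC-3 control (n = 1) and UM-UC-3 siRNA (n = 2). The labels do not name the siRNA target, do not say whether the negative control is itself an siRNA, and do not say whether the libraries came from separate cultures. The series title and the UM-UC-3 column names give HSF1, the factor that switches on heat shock genes. The single control of a line serves both of its siRNA libraries, so the 4 comparisons with a control are not independent of each other.

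HSP90 is an ATP-driven chaperone dimer that brings kinases, steroid receptors and many other signalling proteins to their active fold. HSP90AA1 encodes the stress-inducible alpha form and HSP90AB1 the beta form, which cells make in large amounts without stress. Co-chaperones load clients, set the pace of ATP hydrolysis and steady the closed dimer. HSF1 binds heat shock elements, arrays of the unit nGAAn in alternating orientation, and HSP90 is itself known to hold HSF1 inactive in unstressed cells.

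The stretches around the transcription starts are shown because they hold the letters of such elements in some of the genes and not in others. RefSeq promoter windows on GRCh38.p14, running from 250 bases before a start to 50 bases after it, were matched by symbol for 9 of the 10 genes, in 15 windows, with FKBP4 unmatched. Of them, 3 genes held 3 alternating units, GAA, TTC and GAA or TTC, GAA and TTC, each 2 bases of any kind apart and searched on both strands. In the sequences, printed 5′ to 3′ on the strand of the gene, capitals mark these letters, and in STIP1 a match of 2 units, while matches of 2 units in the other windows are left in lower case.
HSP90AA1: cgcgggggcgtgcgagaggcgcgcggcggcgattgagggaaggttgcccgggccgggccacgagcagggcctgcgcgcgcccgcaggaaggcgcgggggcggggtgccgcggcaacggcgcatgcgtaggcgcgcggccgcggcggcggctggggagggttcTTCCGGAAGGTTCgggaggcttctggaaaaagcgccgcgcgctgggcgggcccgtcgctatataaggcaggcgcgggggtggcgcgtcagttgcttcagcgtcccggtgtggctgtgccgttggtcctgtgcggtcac
HSP90AB1: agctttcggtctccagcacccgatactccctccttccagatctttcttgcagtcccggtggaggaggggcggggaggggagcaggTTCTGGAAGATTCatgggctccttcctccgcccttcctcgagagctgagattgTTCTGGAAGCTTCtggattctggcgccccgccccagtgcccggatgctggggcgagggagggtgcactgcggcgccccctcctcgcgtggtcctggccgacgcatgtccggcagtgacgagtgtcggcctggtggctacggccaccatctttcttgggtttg
CHORDC1: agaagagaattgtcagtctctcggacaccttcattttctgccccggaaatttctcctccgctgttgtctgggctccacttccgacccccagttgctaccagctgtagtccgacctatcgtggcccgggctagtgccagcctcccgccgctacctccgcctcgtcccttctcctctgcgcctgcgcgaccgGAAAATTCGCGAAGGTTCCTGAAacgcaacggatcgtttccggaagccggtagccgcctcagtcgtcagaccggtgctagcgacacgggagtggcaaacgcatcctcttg
STIP1: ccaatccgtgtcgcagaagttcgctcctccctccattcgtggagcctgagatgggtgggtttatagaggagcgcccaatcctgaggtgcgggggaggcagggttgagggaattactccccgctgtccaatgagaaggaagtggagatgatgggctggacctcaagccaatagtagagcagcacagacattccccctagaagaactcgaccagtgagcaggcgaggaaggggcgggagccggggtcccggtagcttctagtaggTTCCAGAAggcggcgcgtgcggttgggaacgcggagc
RefSeq gives HSP90AA1 and STIP1 2 windows each and HSP90AB1 3, for different starts. The one printed belongs to the start furthest downstream, to which the positions refer. The marked letters in the printed windows of these genes thus lie downstream of their other starts. The other windows held neither 3 nor 2 units. The printed HSP90AA1 window is chr14:102086995-102087294 on the minus strand, and its match TTCCGGAAGGTTC runs from base -88 to -76 relative to the start. The printed HSP90AB1 window is chr6:44247693-44247992 on the plus strand, with TTCTGGAAGATTC from -165 to -153 and TTCTGGAAGCTTC from -112 to -100. The only CHORDC1 window is chr11:90223000-90223299 on the minus strand, where 3 overlapping matches form the 23-base run GAAAATTCGCGAAGGTTCCTGAA from -60 to -38. The printed STIP1 window, chr11:64185921-64186220 on the plus strand, held only 2 units, TTC and GAA, at +14 to +21. By gene, 3 of the 9 matched genes held 3 units in some window, against 0.608% of all 27305 genes with a window. Any 2 units, GAA and TTC in either order, which every match of 3 units also holds, were found in 4 of the 9 genes, against 16.2%. By window the counts were 3 and 4 of 15, against 0.49% and 13.5% of all 35116 windows. Genes with several windows have more chances to match. The windows of AHSA1, PPID, CACYBP, CDC37 and PTGES3 held neither. A match describes letters in a window and shows no binding.

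HSF1 (ENSG00000185122) checks the labels: the siRNA libraries held 19.1% and 21.3% of the control CPM in T24 and 36.6% and 26.6% in UM-UC-3. Its log2 fold change over both lines was -1.96 ± 0.26 (SE), with an adjusted p of 0.424 by limma-trend with Benjamini-Hochberg adjustment, so the fit over all genes did not call even this gene. Library totals lay between 23709089 and 28504833 reads. Of the epithelial markers, KRT8 was at 492 to 795 CPM in T24 and 24.2 to 29.1 in UM-UC-3 and KRT18 at 186 to 335 in the 6 libraries. KRT7 was at 1.92 to 7.63 CPM in T24 and 0.702 to 1.60 CPM in UM-UC-3. The urothelial markers UPK1B and UPK2, with EPCAM and KRT19, were at 0.253 CPM or less, the luminal factor GATA3 at 1.16 or less and the blood marker PTPRC at 0.224 or less. Endothelial markers summed to at most 4.40 CPM, and fibroblast and muscle markers to 3.22 to 13.3 CPM. CPM is a share of all reads, so fewer cells of a kind and less RNA per cell cannot be told apart.

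**Figure D1:**
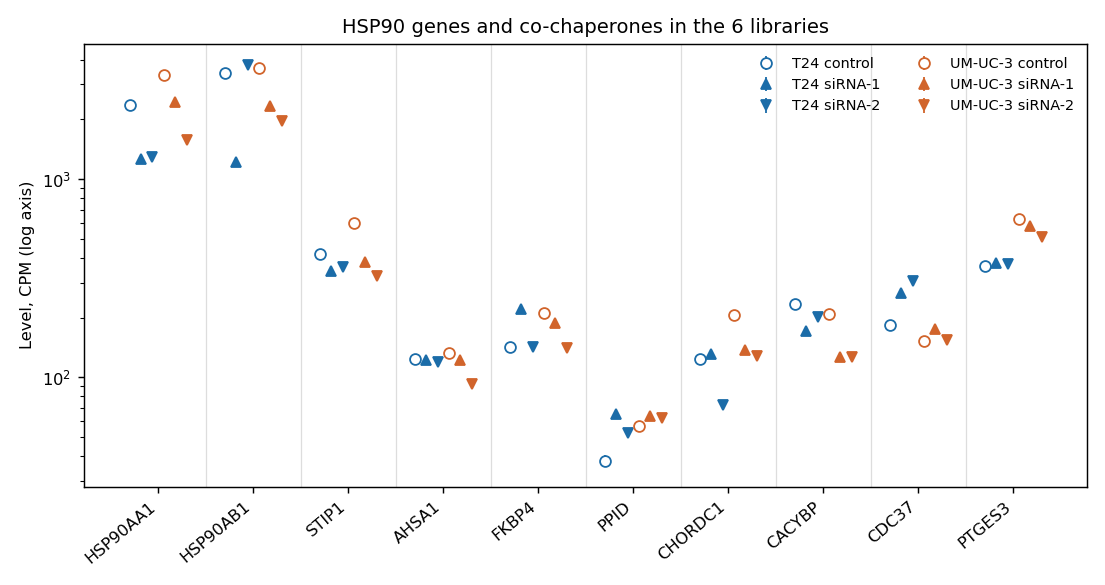
CPM of the 10 genes (log axis) in each of the 6 libraries, with open circles for controls, upward triangles for siRNA-1 and downward triangles for siRNA-2; 95% exact Poisson intervals are drawn and are mostly smaller than the symbols. HSP90AA1 is below the control of its line in all 4 siRNA libraries, and HSP90AB1 in T24 lies far apart between siRNA-1 (1215 CPM) and siRNA-2 (3773 CPM).

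HSP90AA1 (ENSG00000080824), the inducible HSP90, was below its control in every siRNA library. T24 levels were 2374 (control), 1264 (siRNA-1) and 1291 CPM (siRNA-2). The UM-UC-3 levels, in this order of treatments, which all later triplets keep, were 3326, 2445 and 1581 CPM. This left 53.2% and 54.4% of the control in T24 and 73.5% and 47.5% in UM-UC-3, and the 95% counting interval of the read ratio left out 1 in each. HSP90AA1 was the 1 gene of the 10 at or below 80% of its control in all 4 libraries, which 3.54% of all tested genes were. Its log2 fold change over both lines was -0.83 ± 0.23 (SE), with an unadjusted p of 0.0062 and an adjusted p of 0.424 (limma-trend). It did not pass the threshold of 0.05.

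HSP90AB1 (ENSG00000096384), the constitutive form, did not follow this in T24 siRNA-2. T24 levels were 3429 (control), 1215 (siRNA-1) and 3773 CPM (siRNA-2). UM-UC-3 levels were 3644, 2334 and 1955 CPM. T24 siRNA-1 therefore held 35.4% of its control and T24 siRNA-2 held 110.0%, with 64.1% and 53.6% in UM-UC-3. The T24 siRNA libraries stood on either side of the T24 control and were more than 3-fold apart, a gap that 5.8% of all tested genes showed and no other of the 10 genes did. The log2 fold change over both lines was -0.72 ± 0.39 (adjusted p = 0.567, limma-trend), and within T24 it was -0.68 ± 0.61 (adjusted p = 0.685). Without T24 siRNA-2 the T24 value was -1.50 (adjusted p = 0.0496), and without T24 siRNA-1 it was 0.14 (adjusted p = 0.864). Each then sets 1 siRNA library against 1 control, with the spread taken from the 2 UM-UC-3 siRNA libraries alone and assumed to hold for T24, so these p-values are no firm test.

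T24 siRNA-2 also stood apart in the makeup of the HSP90 pair. As a share of the reads of both genes, HSP90AA1 made up 40.9%, 51.0% and 25.5% in T24. The UM-UC-3 shares were 47.7%, 51.2% and 44.7%, so T24 siRNA-2 was the lowest of the 6 libraries. Both genes together summed to 5802, 2478 and 5064 CPM (T24) and 6970, 4779 and 3535 CPM (UM-UC-3), below the control of the line in each siRNA library. Few reads were assigned to near copies: the summed pseudogenes named after HSP90AA1 and HSP90AB1 were at 5.10 to 15.8 CPM and 2.21 to 9.28 CPM. With the reads of these pseudogenes added, HSP90AB1 in T24 siRNA-2 was at 110.1% of the control and HSP90AA1 in T24 siRNA-1 at 53.3%. Of the 100-base windows of the transcripts, 2.99% for HSP90AA1 and 1.38% for HSP90AB1 match transcripts of other genes. The search covered the same and the opposite strand, here and for the genes below, and did not tell them apart. The counts could hold or lack such shared reads.

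**Figure D2:**
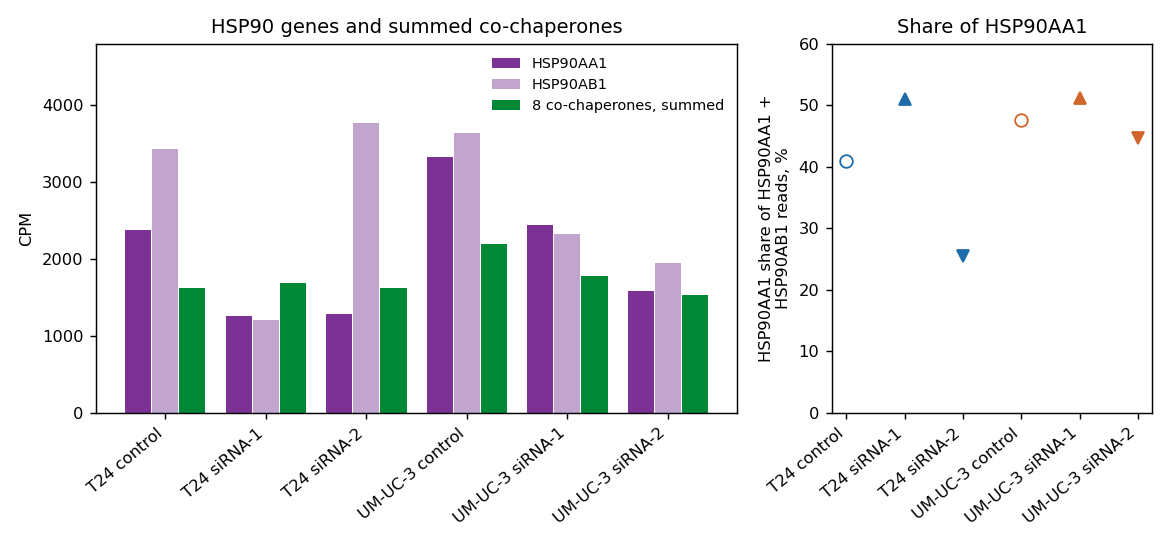
Left, CPM of HSP90AA1, HSP90AB1 and the 8 co-chaperones summed in each library; right, HSP90AA1 as a percent of the reads of both HSP90 genes, with 95% binomial intervals smaller than the symbols. T24 siRNA-2 keeps HSP90AB1 at 3773 CPM and has the lowest HSP90AA1 share, 25.5%.

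STIP1 (ENSG00000168439), the adaptor also called HOP that passes clients from HSP70 to HSP90, was lower than its control in every siRNA library. The T24 triplet was 417, 344 and 358 CPM, and the UM-UC-3 triplet 601, 382 and 322 CPM. That left 82.4% and 85.7% of the control in T24 and 63.6% and 53.6% in UM-UC-3. The log2 fold change was -0.51 ± 0.22 over both lines (unadjusted p = 0.0453, adjusted p = 0.503 by limma-trend) and -0.77 ± 0.27 within UM-UC-3 (adjusted p = 1.00).

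CDC37 (ENSG00000105401), which delivers kinases to HSP90, lay on the other side of its control. T24 levels were 184, 267 and 306 CPM, and UM-UC-3 levels 152, 174 and 154 CPM. In T24 this was 144.7% and 165.9% of the control. In UM-UC-3 siRNA-2 it was 101.3%, and the counting interval of that ratio held 1 (0.970 to 1.06). The log2 fold change was 0.37 ± 0.22 over both lines (adjusted p = 0.606, limma-trend).

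AHSA1 (ENSG00000100591), the activator of the HSP90 ATPase, and PTGES3 (ENSG00000110958), the p23 protein that steadies the closed dimer, were close to their controls in T24. AHSA1 read 124, 121 and 119 CPM (T24) and 132, 123 and 92.2 CPM (UM-UC-3). PTGES3 read 365, 375 and 374 CPM (T24) and 627, 582 and 511 CPM (UM-UC-3). For both genes the counting intervals of both T24 ratios held 1, and both UM-UC-3 siRNA libraries were below the control. The log2 fold changes over both lines were -0.18 ± 0.23 for AHSA1 and -0.08 ± 0.20 for PTGES3 (adjusted p = 0.815 and 0.909, limma-trend).

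The immunophilins FKBP4 (ENSG00000004478) and PPID (ENSG00000171497) are peptidyl-prolyl isomerases that dock on the HSP90 tail and take part in steroid receptor complexes. The FKBP4 triplets were 142, 219.7 and 142 CPM for T24 and 210.3, 188 and 139.9 CPM for UM-UC-3. Those of PPID were 37.9, 65.5 and 52.3 CPM for T24 and 57.0, 63.7 and 62.2 CPM for UM-UC-3. FKBP4 was thus above its control in T24 siRNA-1 alone, while PPID was above its control in all 4 siRNA libraries, at 109.2% to 172.7%. The log2 fold changes over both lines were -0.03 ± 0.28 for FKBP4 and 0.38 ± 0.24 for PPID (adjusted p = 0.978 and 0.618, limma-trend). Of the 100-base windows of PPID transcripts, 15.9% match transcripts of ETFDH on the same or the opposite strand, so the PPID counts could hold or lack shared reads.

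CHORDC1 (ENSG00000110172), also called morgana, and CACYBP (ENSG00000116161), a calcyclin-binding protein, both carry a CS domain of the kind that docks on HSP90. The triplets of CHORDC1 were 123, 132 and 72.1 CPM for T24 and 205, 138 and 127 CPM for UM-UC-3. For CACYBP they were 233, 172 and 201 CPM in T24 cells, then 209, 126 and 126 CPM in UM-UC-3 cells. CACYBP was below its control in all 4 siRNA libraries, at 60.2% to 86.5%, and CHORDC1 in 3 of 4, with T24 siRNA-1 at 106.7%. The log2 fold changes over both lines were -0.48 ± 0.28 for CHORDC1 (adjusted p = 0.586) and -0.52 ± 0.22 for CACYBP (unadjusted p = 0.0395, adjusted p = 0.487, limma-trend). Of the CACYBP windows, 8.22% matched other genes on the same or the opposite strand, 211 windows MRPS14 and 169 the pseudogene CACYBPP2.

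**Figure D3:**
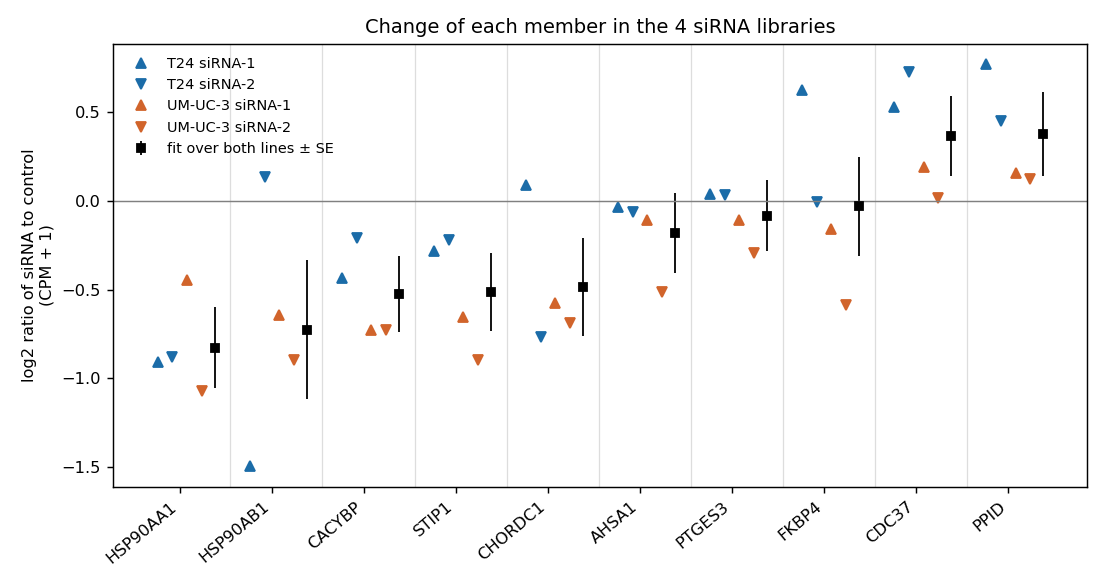
Log2 ratio of each siRNA library to the control of its line on the log2(CPM + 1) scale for the 10 genes, with the fit over both lines as black squares and its SE as bars. HSP90AA1, CACYBP, STIP1 and AHSA1 are below 0 in all 4 libraries, and CDC37 and PPID above 0. AHSA1 in T24 and CDC37 in UM-UC-3 siRNA-2 are within counting error of 0.

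Over both lines, 4 of the 10 genes (HSP90AA1, STIP1, AHSA1 and CACYBP) were below the control in all 4 siRNA libraries, against 12.2% of all tested genes, and 2 (PPID and CDC37) were above it in all 4, against 18.8%. AHSA1 in both T24 libraries and CDC37 in UM-UC-3 siRNA-2 were within counting error of the control. With TMM scaling CHORDC1 joined the first group and CDC37 left the second. None of the 10 passed an adjusted p of 0.05 by limma-trend (0% of all genes called in either direction), nor by edgeR, which called 0 genes in all, nor by DESeq2 on the recovered reads, which called 0.656% of all genes. Unadjusted p-values were under 0.05 for HSP90AA1, STIP1 and CACYBP, 3 of 10, against 9.9% of all genes. The median log2 fold change of the 10 genes was -0.33, with 8 negative, beside a median of 0.06 over all tested genes, of which 5711 were negative. Without the control of a line the fit gives the value of the other line. Leaving out T24 control or UM-UC-3 control, CDC37 was at 0.11 or 0.63, PPID at 0.14 or 0.61, STIP1 at -0.77 or -0.25, CACYBP at -0.73 or -0.32 and AHSA1 at -0.31 or -0.05.

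Counted by line, more of the genes were below their control in UM-UC-3 than in T24, a difference in counts that was not tested. The counts and medians by line are on CPM without TMM scaling. With it, CHORDC1 was also lower in both T24 siRNA libraries and PTGES3 was no longer higher in both. In UM-UC-3, CDC37 was then no longer higher in both. In UM-UC-3, 8 of 10 were lower in both siRNA libraries, beside 30.4% of all tested genes, and the remaining 2, PPID and CDC37, were higher in both, beside 39.8%. In T24, 4 of 10 were lower in both, beside 30.1%, and 3 (PPID, CDC37 and PTGES3) were higher in both, beside 39%. At a size of at least 1.5-fold lower in both libraries of a line, the count was 3 in UM-UC-3 (HSP90AB1, STIP1 and CACYBP; 3.1% of all genes) and 1 in T24 (HSP90AA1; 10.9%). None of the 10 was at least 1.5-fold higher in both libraries of T24 (10.3% of all genes) or of UM-UC-3 (7.43%). PTGES3 was the 1 gene higher in both T24 libraries and lower in both UM-UC-3 libraries (9.66%), by margins in T24 within counting error, and none had the opposite pattern (8.97%). The median log2 ratio of the 10 genes was 0.003 and -0.03 in T24 siRNA-1 and siRNA-2 and -0.30 and -0.64 in UM-UC-3, with medians of all genes between 0.03 and 0.11. The test of the difference between the lines passed for none of the 10 by limma-trend (0% of all genes called, 4.69% at an unadjusted p under 0.05) or DESeq2 (0.294%), with FKBP4 the furthest apart at 0.68 ± 0.53 (adjusted p = 0.950). Within a line none passed either, by limma-trend (0% called) or by DESeq2 (2.43% called in T24 and 0.0226% in UM-UC-3). Unadjusted p-values under 0.05 were found for HSP90AA1 in T24 (12.1% of all genes) and for STIP1 and CACYBP in UM-UC-3 (3.05%).

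The co-chaperones were followed together as well. The 8 of them summed to 1627, 1695 and 1625 CPM (T24) and to 2194, 1777 and 1535 CPM (UM-UC-3). In T24 that was 104.2% and 99.9% of the control, and in UM-UC-3 81.0% and 70.0%. PTGES3 and STIP1 were the largest parts of the sum in every library. The T24 sums also join opposite changes, with STIP1 and CACYBP below the control and CDC37 and PPID above it. Per CPM of the HSP90 pair, the co-chaperones stood at 0.280, 0.684 and 0.321 in T24 and at 0.315, 0.372 and 0.434 in UM-UC-3. The ratio was above its control in all 4 siRNA libraries, with T24 siRNA-1, the library with the lowest HSP90AB1, the highest.

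The siRNAs themselves were also compared, over both lines. This takes a number to stand for the same siRNA in both lines, which the labels do not state. None of the 10 genes was called between siRNA-2 and siRNA-1 by limma-trend, where 0.143% of all genes were called higher and 0.136% lower, nor by DESeq2 (1.91%), and none had an unadjusted p under 0.05 (12.1%). HSP90AB1 had the largest difference, 0.69 ± 0.37 (adjusted p = 0.485), followed by FKBP4 at -0.53 ± 0.27 (adjusted p = 0.471) and CHORDC1 at -0.49 ± 0.28 (adjusted p = 0.522). The HSP90AB1 value averages opposite directions. In T24 siRNA-2 was above siRNA-1 (3773 against 1215 CPM), and in UM-UC-3 it was below (1955 against 2334 CPM). Of the 10 genes, 6 had a difference of the same sign in both lines. Without UM-UC-3 siRNA-1 the HSP90AB1 difference was 1.38 (adjusted p = 0.0183), and without T24 siRNA-2 it was -0.04. With an siRNA library left out, 1 of the siRNAs rests on a single library that is assumed to vary like the others, so such p-values are no firm test, for UNC45A as well. UNC45A, a myosin-folding co-chaperone of HSP90 outside the 10, was the 1 other co-chaperone called, and was chosen here after its values were seen. Its triplets were 112, 17.8 and 142 CPM (T24) and 58.1, 27.7 and 72.5 CPM (UM-UC-3), so it was low with siRNA-1 in both lines and not with siRNA-2. Its difference was 2.14 ± 0.37 (adjusted p = 0.0444, limma-trend), 0.101 with TMM scaling, 0.134 by edgeR and 2.7e-04 by DESeq2, 0.241 with no filter on low values, and 0.267 and 0.427 without T24 siRNA-1 and T24 siRNA-2.

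Between the lines, CDC37 and PTGES3 differed in level by limma-trend. The lines were kept in different media, so differences of line and of medium cannot be told apart. All 3 T24 libraries were above all 3 UM-UC-3 libraries for CDC37 (27.1% of all genes) and below them for PTGES3 (23.9%). The fit takes the siRNA effect as equal in both lines, so an unequal effect enters the line difference. CDC37 stood at 184 (T24) and 152 CPM (UM-UC-3) in the controls and at means of 286 and 164 CPM with siRNA. For PTGES3 these were 365 and 627 CPM, and 374 and 546 CPM. The log2 difference, T24 minus UM-UC-3 with the treatment as a covariate, was 0.62 ± 0.21 for CDC37 (adjusted p = 0.0443) and -0.62 ± 0.19 for PTGES3 (adjusted p = 0.0293), in a comparison where limma-trend called 21% of all genes higher and 18.6% lower in T24 (49.1% at an unadjusted p under 0.05, among them HSP90AA1, CDC37 and PTGES3). The CDC37 call was lost with TMM scaling (adjusted p = 0.0669), by edgeR (0.0759), by DESeq2 (0.0540), with no filter (0.0529), and without T24 siRNA-1 (0.0510), T24 siRNA-2 (0.108), UM-UC-3 siRNA-1 (0.158) or UM-UC-3 siRNA-2 (0.187); the PTGES3 call was lost without T24 control (0.103), UM-UC-3 control (0.109), UM-UC-3 siRNA-1 (0.145) or UM-UC-3 siRNA-2 (0.0678). HSP90AA1 was lower in T24 by limma-trend at -0.58 ± 0.22 without passing (adjusted p = 0.0633), and passed by edgeR (0.0445) and DESeq2 (0.0343), which called 43.9% of all genes. CHORDC1, at -0.54 ± 0.26 (adjusted p = 0.133), passed without T24 siRNA-1 at -0.81 (0.0124).

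Levels between genes were compared as CPM per kb of exon. HSP90AB1 was the highest of the 10 in both lines, at 941 ± 466 CPM per kb (SD over the 3 libraries of the line) in T24 and 887 ± 297 in UM-UC-3, and HSP90AA1 the second, at 313 ± 121 and 467 ± 166. Their libraries overlapped in T24 and not in UM-UC-3, where they overlapped when the length of the longest transcript was used. PTGES3 was next, at 109 ± 1.63 and 169 ± 17.2, though in T24 CDC37 and STIP1 came before it with the longest transcript. CHORDC1 was the lowest and PPID the second lowest in both lines under both lengths, but with the longest transcript their libraries overlapped in both lines. By exon length, among neighbours in T24, CDC37 and STIP1, CACYBP and AHSA1, and AHSA1 and FKBP4 overlapped, and in UM-UC-3 AHSA1 and FKBP4, and FKBP4 and CACYBP.

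The rest of the HSP90 machinery was counted in the same way. Of 36 other HSP90 genes and co-chaperones listed, 33 were tested, of which 2 (FKBP5 and PIH1D1) were lower and 6 higher than the control in all 4 siRNA libraries and 25 mixed, where 12.2% of all tested genes were lower and 18.8% higher. None was called over both lines, and the median log2 fold change was -0.01 beside 0.06 for all genes. HSP90B1, the HSP90 of the endoplasmic reticulum, read 3185, 759 and 820 CPM (T24) and 1207, 1256 and 1597 CPM (UM-UC-3), below its control in T24 and above it in UM-UC-3. TRAP1, the mitochondrial HSP90, read 61.7, 95.9 and 120.0 CPM (T24) and 115, 92.5 and 80.3 CPM (UM-UC-3), the other way round. STUB1, the ubiquitin ligase CHIP that tags HSP90 clients for degradation, was above its control in all 4 libraries, with 19.7, 44.1 and 44.5 CPM for T24 and 5.12, 9.57 and 9.72 CPM for UM-UC-3 (log2 fold change 0.96 ± 0.24, adjusted p = 0.424, limma-trend). FKBP5, the immunophilin that restrains the glucocorticoid receptor, was below it in all 4, with 5.61, 1.52 and 1.61 CPM for T24 and 64.6, 56.9 and 40.7 CPM for UM-UC-3 (-0.89 ± 0.30, adjusted p = 0.424). By the same fit CDC37L1, a relative of CDC37, was at 0.59 ± 0.27, TSC1 at 0.50 ± 0.22 and NUDCD3 at 0.49 ± 0.25, and none of these passed.

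**Figure D4:**
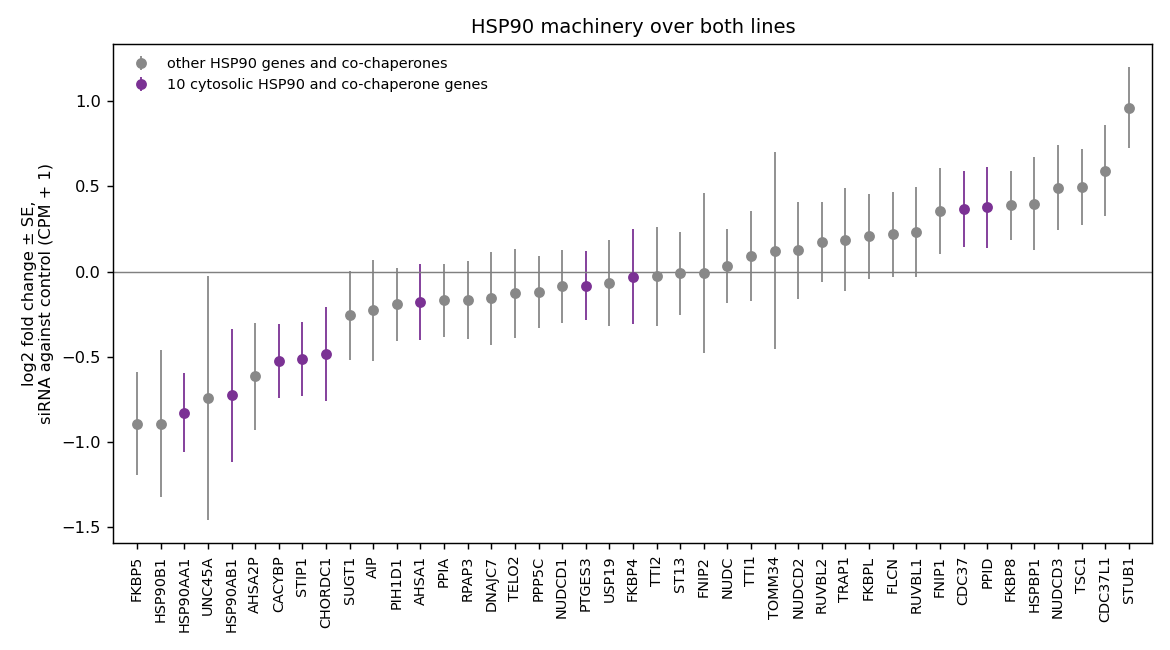
Log2 fold change over both lines, siRNA against control on the log2(CPM + 1) scale, with its SE, for the 10 genes (purple) and 33 other HSP90 genes and co-chaperones (grey), sorted by size. The 10 genes run from HSP90AA1 at -0.83 to PPID at 0.38, and the others from FKBP5 at -0.89 to STUB1 at 0.96.

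Other gene groups in these libraries were set beside the 10 genes. Of 17 tested heat shock genes outside the HSP90 machinery, 8 were lower and none was higher in all 4 siRNA libraries, beside 12.2% and 18.8% of all tested genes. Their median log2 fold change was -0.30, with HSPH1 at -0.70 ± 0.23, UBB at -0.44 ± 0.24 and HSPB1 at -0.42 ± 0.21 by limma-trend, none passing. All 15 proliferation genes were lower in all 4, beside the same 12.2%, and summed to 3468, 1189 and 1434 CPM (T24) and to 4488, 3036 and 3081 CPM (UM-UC-3). The 14 genes of endoplasmic reticulum stress summed to 17567, 5713 and 5906 CPM (T24) and to 3747, 3855 and 4183 CPM (UM-UC-3). The part of these groups in the values of the 10 genes was not tested.

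By the distance between their 4 log2 ratios, the genes most like HSP90AA1 among 4817 other tested genes with a mean of at least 50 CPM were CDCA7 (0.28), POLA1 (0.33), TMEM97 (0.33) and NUP54 (0.35). Those most like HSP90AB1 were ADK and NETO2 (0.47 each), JADE2 (0.50) and NUP188 (0.51). The matches of HSP90AB1 lay further off than those of HSP90AA1.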

How the data were processed

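RNA of 6 libraries was measured by paired-end sequencing. The submitters' processing notes name the builds hg19 and GRCh37 and the tools bcl2fastq 2.19.1, HISAT2 2.1.0 and HTSeq 0.6.1, without roles. Strand and RNA selection are not given in the sources used here. Each value deposited by the authors is a CPM, and 100% of them were whole multiples of 1 read within 0.01 read, with 0.5 read standing for 0, so whole reads were recovered. One read was worth 0.0351 to 0.0422 CPM. Values missing from 1 of a line's files were set to 0 (3410 in T24, 4104 in UM-UC-3). Genes were joined by Ensembl identifier, since 4244 had different names between the lines.

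limma-trend (limma 3.58.1, R 4.3.3) was run on log2(CPM + 1), which understates changes of low genes, for the 13265 genes with a mean of at least 1 CPM, with Benjamini-Hochberg adjustment over all of them and a threshold of 0.05. The fit over both lines had the line as covariate; the 4 group means were fitted together for the comparisons within a line and for the difference, which assumes that a lone control varies like the siRNA libraries; siRNA-2 against siRNA-1 had 3 treatments and the line; T24 against UM-UC-3 had the treatment as covariate. The spread behind a p-value is that between these libraries only, and may be technical. No siRNA was repeated within a line. In the fit of the 4 group means the spread comes from the differences between siRNA-1 and siRNA-2, so differences between the siRNAs are part of it. The fit over both lines adds any difference between the lines in the siRNA effect. Ratios carry exact binomial and levels exact Poisson 95% intervals, which cover counting error only. Other settings were another pseudocount (0.1), other filters, TMM scaling, edgeR 4.0.16 and DESeq2 1.42.0 on the recovered reads, a replicate block and leaving out each library. The fitting code was checked on simulated reads for the size and sign of known changes. There both siRNAs and both lines shared the same effect, so the check does not cover the p-values of these libraries. Lengths came from GENCODE 29, a GRCh38 annotation matched by identifier only. Named genes were the 10 genes, HSF1, of the other co-chaperones HSP90B1, TRAP1, FKBP5 and up to 6 with the smallest p, up to 3 heat shock genes by p, and the 4 nearest genes by distance. The genes and lists were chosen with earlier results of these data known.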

Additional observations from a re-analysis of the deposited data

Results flagged for a closer look

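PTGES3 was picked out because its T24 siRNA libraries both lay above their control, at 375 and 374 CPM against 365, while its UM-UC-3 siRNA libraries both lay below theirs, at 582 and 511 CPM against 627; 9.66% of all tested genes did this. The difference between the lines, 0.238 on the log2 scale (T24 minus UM-UC-3), had an SE of 0.38 and an adjusted p of 0.968 by limma-trend. The T24 value of 0.04 turned to -0.05 with TMM scaling and with edgeR and to -0.03 with DESeq2.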

How the results depend on the processing

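Under other settings, 392 of 406 values kept their direction and side of the threshold, as did 288 of 326 with 1 library left out. These are values for the 10 genes, and for UNC45A in siRNA-2 against siRNA-1, without the counts of called genes. The cause of the changes below was not tested. The counts of called genes, where the main fits gave 0 over both lines, within each line and for the difference, came with DESeq2 to 87 over both lines, 322 in T24, 3 in UM-UC-3 and 39 for the difference. The main fit called 37 genes for siRNA-2 against siRNA-1, and DESeq2 253, while TMM scaling, edgeR and no filter on low values called 0 (1575, 1499 and 1828 genes at an unadjusted p under 0.05). With no filter T24 had 2, and at a mean of at least 10 CPM the lines differed in 3464 genes rather than 5253, with fewer genes tested. The siRNA numbers do not show that libraries pair: with the siRNA number as a replicate block the counts were 847 in T24, 12 in UM-UC-3 and 119 for the difference, and 0 over both lines. The differences of siRNA-2 from siRNA-1 in the lines correlated at r = 0.417 over 13265 genes, which are not replicates.

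TMM scaling moved the median of all genes from 0.06 to -0.01 over both lines and gave 1 gene above its control in every siRNA library rather than 2. Values that turned were PTGES3 within T24 (-0.054 with TMM scaling, -0.052 with edgeR, -0.032 with DESeq2) and HSP90AB1 between the lines (0.079 with edgeR, 0.078 with DESeq2). UNC45A, siRNA-2 against siRNA-1, kept its direction without passing with no filter, TMM scaling or edgeR, and ran from 1.36 to 2.92 with 1 library left out.

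With 1 library left out in turn, called genes ranged from 0 to 447 in T24 and from 0 to 485 for siRNA-2 against siRNA-1, and genes below the control in every siRNA library from 4 to 8, the latter without T24 control. Over both lines FKBP4 ranged from -0.37 to 0.31 and PTGES3 from -0.20 to 0.037, and without a change of sign HSP90AB1 from -1.08 (without T24 siRNA-2) to -0.38 (without T24 siRNA-1), CHORDC1 from -0.69 (without T24 siRNA-1) to -0.32 (without T24 siRNA-2) and HSP90AA1 from -0.97 to -0.70. Within T24 HSP90AB1 ranged from -1.50 to 0.14, FKBP4 from -0.0021 to 0.63 and CHORDC1 from -0.77 to 0.092. The difference between the lines ranged from -0.14 to 0.72 for CHORDC1, -0.73 to 0.91 for HSP90AB1 and -0.45 to 0.18 for HSP90AA1. For siRNA-2 against siRNA-1 the ranges were -0.40 to 0.048 for PPID, -0.042 to 1.42 for HSP90AB1, -0.071 to 0.30 for CACYBP, -0.26 to 0.28 for CDC37, -0.34 to 0.15 for STIP1 and -0.22 to 0.036 for PTGES3. Between the lines they were -0.50 to 0.43 for HSP90AB1, -0.35 to 0.12 for FKBP4 and -0.054 to 0.18 for AHSA1. Without the control of a line, its own comparison could not be fitted.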
